A study of Mus musculus with 11 samples.

Results

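The 9 genes described here, apart from Alox5ap, make, break down or sense prostaglandins: Ptgs1, Ptgs2, Ptges, Ptges2, Ptgds, Ptgis, Ptger4, Hpgd and Alox5ap. They were taken by symbol from a table of 13985 genes measured by RNA-seq in preparations that the labels call primary kidney fibroblasts, and all 9 passed the filter on low values. The cells came from C57BL/6 mice and were obtained by digesting the kidney and enriching cells in DMEM with 10% FBS. Kidneys with unilateral ureteral obstruction (UUO, a surgical block of one ureter that is used as a model of renal fibrosis) were sampled 7 days after surgery (Day 7, n = 4) and 3 days after surgery (Day 3, n = 4), and control kidneys gave the third group (n = 3). No drug or transgene is named for any group, and the labels leave unsaid whether libraries of one group came from different animals. The p-values therefore reflect only the scatter of these libraries, part of which may be technical.

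Prostaglandins start from arachidonic acid released from membranes. The cyclooxygenases COX-1 (Ptgs1) and COX-2 (Ptgs2) turn it into an unstable intermediate, from which terminal synthases make PGE2 (Ptges, Ptges2), PGD2 (Ptgds) or prostacyclin (Ptgis). PGE2 acts through EP receptors such as EP4 (Ptger4), and 15-hydroxyprostaglandin dehydrogenase (Hpgd) starts the inactivation of PGE2. Alox5ap encodes FLAP, which hands arachidonic acid to 5-lipoxygenase, so it belongs to the neighbouring leukotriene branch rather than to prostaglandin synthesis. In the kidney, prostaglandins are known for effects on renal blood flow, renin release and the handling of salt and water.

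Levels are FPKM as the authors deposited them, which are scaled to transcript length and can be set side by side between genes. Means are given ± SD over the libraries of a group, and the depth per library is unknown because the tables hold no counts. Log2 fold changes are on the log2(FPKM + 1) scale, which understates the change of low genes, and adjusted p-values come from limma with Benjamini-Hochberg adjustment over 13428 genes, with calls at an adjusted p under 0.05. All genes together moved in the comparisons with control: the median log2 fold change was 0.28 at Day 7 and 0.26 at Day 3. Of the genes called, 66.3% were higher at Day 7 and 67.9% at Day 3, against 47.7% and 44.3% with each library centred on its median and 81.3% and 82.9% with values rescaled to TPM. A scaling is named beside a member where it ended or added its call or turned its direction.

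The preparations held transcripts of several cell types. Summed FPKM of 12 fibroblast and pericyte markers was 1440 to 3630 at Day 7, 491 to 1010 at Day 3 and 66.8 to 76.3 in control. For 14 macrophage markers it was 3610 to 4190 at Day 7, 3110 to 5150 at Day 3 and 298 to 470 in control. Conversely, 15 proximal tubule markers summed to 599 to 750 at Day 7, 1050 to 1920 at Day 3 and 13100 to 16100 in control. The control libraries therefore carried far more proximal tubule than fibroblast marker transcript, which goes against the labelled cell type. At Day 3 the macrophage and proximal tubule sums were also above the fibroblast and pericyte sum. At Day 7 the macrophage mean of 4000 was above the fibroblast and pericyte mean of 3010, with overlapping ranges. No marker on these lists was at 0 in every library of a group. In bulk RNA, fewer cells of a type and less RNA per cell cannot be told apart. Genes of the mitochondrial genome took 4.27% to 7.94% of the summed FPKM at Day 7, 6.06% to 7.29% at Day 3 and 25.4% to 35.9% in control, where replicate 2 was the lowest.

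**Figure D1:**
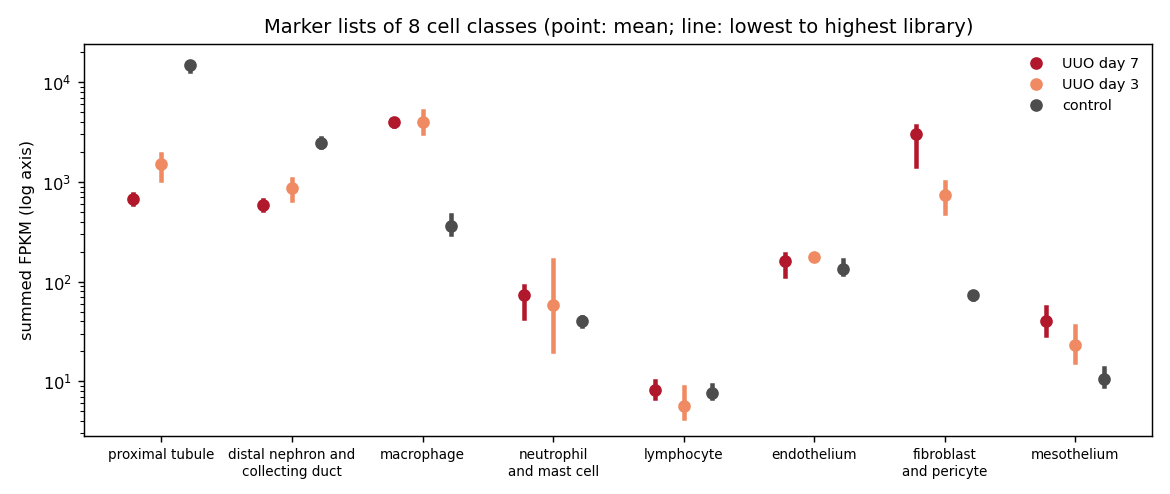
Summed FPKM of marker genes per library (log axis) for each cell type list, with Day 7, Day 3 and control side by side, the point at the group mean and the line from the lowest to the highest library. Every UUO library was above every control library for the macrophage and the fibroblast and pericyte lists, and below every control library for both tubule lists.

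Among the 9 genes, 8 were called between Day 7 and control, 6 of them higher and 2 lower, where 69.8% of all genes tested were called, 46.3% higher and 23.5% lower. Between Day 3 and control 8 were also called, 6 higher and 2 lower, where 65.3% of all genes were called, 44.4% higher and 21% lower. Both comparisons use the same control libraries. With so many genes called, the members' counts lie close to the background in both, and are no result about the members. Between Day 7 and Day 3 only Ptgs2 and Ptgis were called, both higher at Day 7, which is 2 of 9 where 15.7% of all genes were called, 7.37% higher and 8.37% lower. The libraries of both groups did not overlap for 8 members between Day 7 and control, 7 between Day 3 and control and 3 between Day 7 and Day 3, where 68.5%, 64.7% and 20.4% of all genes did not overlap.

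**Figure D2:**
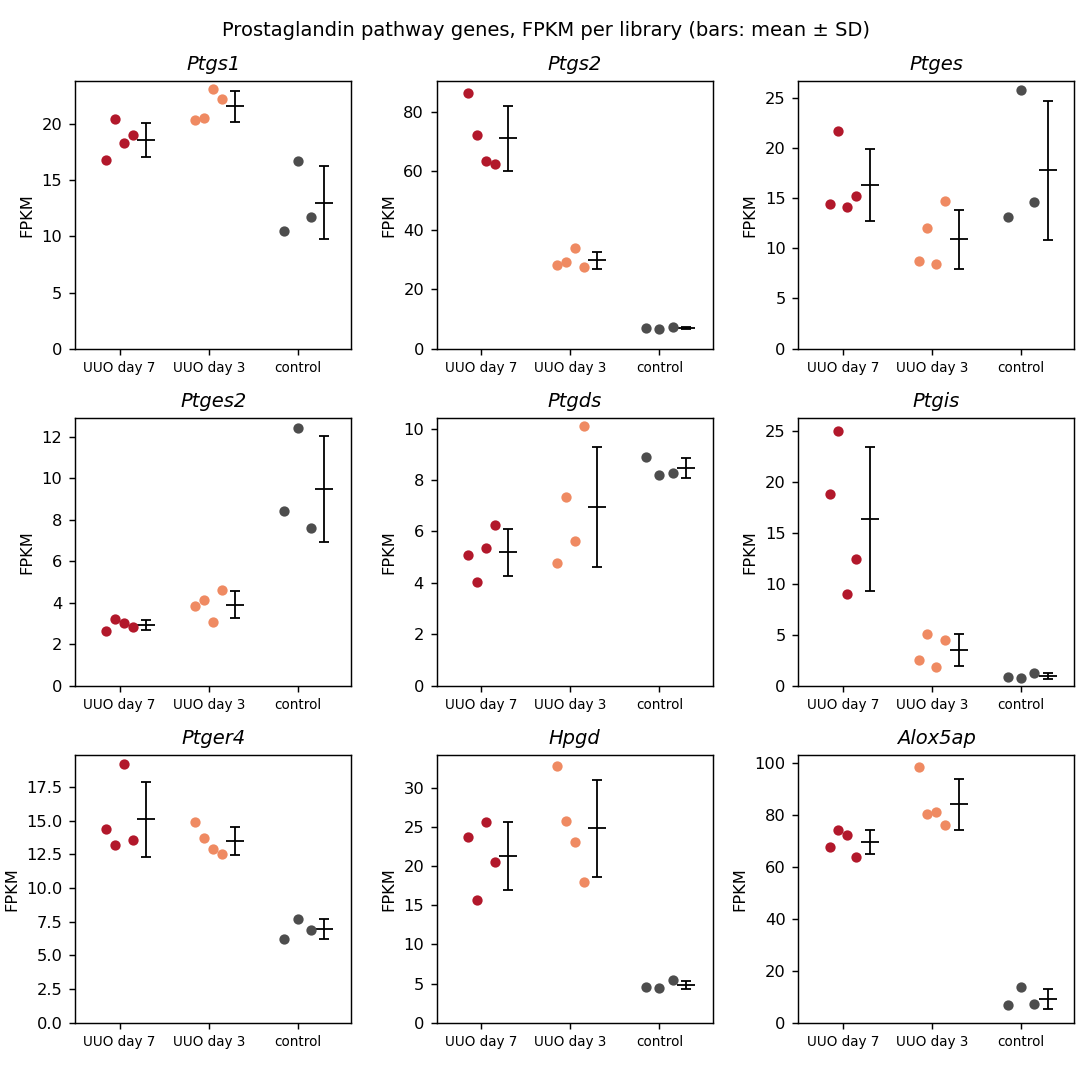
FPKM of the 9 genes in every library, with Day 7 on the left, Day 3 in the middle and control on the right, and bars for the mean ± SD. Ptgs2 and Ptgis were highest at Day 7, intermediate at Day 3 and lowest in control without overlap. Ptgs1, Hpgd and Alox5ap had their highest mean at Day 3, but none of them was called between the days.

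Ptgs2, the inducible cyclooxygenase (ENSMUSG00000032487.8, GRCm38 chr1:150100031-150108227, plus strand), differed between all 3 groups. At Day 7 it measured 86.4, 72.1, 63.3 and 62.4 FPKM. At Day 3 it measured 28.1, 29.3, 34.0 and 27.7 FPKM, and in control 6.86, 6.51 and 7.41 FPKM. Every Day 7 library lay above every Day 3 library, and every Day 3 library lay above every control library. The Day 7 mean of 71.0 ± 11.1 FPKM was 10.3 times the control mean of 6.92 ± 0.455 FPKM, with a log2 fold change of 3.17 (95% interval 2.89 to 3.46, adjusted p = 6.21e-09). For Day 3, with a mean of 29.8 ± 2.89 FPKM, the log2 fold change against control was 1.95 (SE 0.13, adjusted p = 1.65e-07). Day 7 exceeded Day 3 by 1.22 on the log2 scale (95% interval 0.96 to 1.48, adjusted p = 0.000165). The gene has a single listed transcript, whose values repeat those of the gene. Its result in the limma fit over all transcripts (1.22, adjusted p = 0.00165) is therefore no separate support.

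Ptgs1, the cyclooxygenase usually described as constitutive (ENSMUSG00000047250.13, chr2:36230426-36252272, plus strand), changed less. It measured 16.8, 20.5, 18.3 and 19.1 FPKM at Day 7. Day 3 libraries had 20.4, 20.6, 23.2 and 22.3 FPKM and control libraries 10.5, 16.7 and 11.7 FPKM. Control replicate 2 almost reached the lowest Day 7 library, although the groups did not overlap. The log2 fold change against control was 0.51 at Day 7 (95% interval 0.21 to 0.82, adjusted p = 0.0061) and 0.72 at Day 3 (SE 0.14, adjusted p = 0.000713). With median centring the Day 7 difference was 0.21 and was no longer called (adjusted p = 0.228). Day 7 and Day 3 did not differ beyond the test (log2 fold change −0.20, adjusted p = 0.323).

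The balance of the cyclooxygenases was read as the ratio of FPKM within each library, which no scaling of a whole library can move. Ptgs2 stood at 3.85 ± 0.873 times Ptgs1 at Day 7, 1.38 ± 0.0975 times at Day 3 and 0.558 ± 0.145 times in control. The lowest Day 7 ratio was 3.27 and the highest Day 3 ratio 1.47, while the highest control ratio was 0.652. Ptgs1 was thus the more abundant cyclooxygenase transcript in all control libraries, and Ptgs2 in all UUO libraries.

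The promoters of the cyclooxygenase genes are shown because these genes, which feed the same step, moved by different amounts. Each line is the 250 bases before the transcription start in RefSeq (GRCm38.p6), 5′ to 3′ on the gene's strand, with matches to 9 searched motifs in capitals. The spans are chr1:150099781-150100030 for Ptgs2 and chr2:36230176-36230425 for Ptgs1, both on the plus strand.
Ptgs2: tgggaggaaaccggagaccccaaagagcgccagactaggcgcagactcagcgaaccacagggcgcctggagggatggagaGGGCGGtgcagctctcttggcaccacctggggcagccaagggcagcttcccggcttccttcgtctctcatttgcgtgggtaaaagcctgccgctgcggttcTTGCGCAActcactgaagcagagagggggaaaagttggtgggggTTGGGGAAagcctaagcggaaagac
Ptgs1: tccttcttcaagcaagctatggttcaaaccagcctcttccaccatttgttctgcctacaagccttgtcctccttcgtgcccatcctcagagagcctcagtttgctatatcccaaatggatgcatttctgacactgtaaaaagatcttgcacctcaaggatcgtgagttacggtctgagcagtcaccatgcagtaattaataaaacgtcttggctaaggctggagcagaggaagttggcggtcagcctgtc
The motifs, searched on both strands, were the TATA box TATAAA, the cyclic AMP response half-site TGACG, the E-box CACGTG, the AP-1 site TGANTCA, the C/EBP site TTNNGNAA, an NF-kB site, the SP1 GC box GGGCGG, the CCAAT box and the EGR site GCGTGGGCG. In the Ptgs2 window the C/EBP letters matched at 69 to 62 bases before the start, as TTGCGCAA on both strands, and at 25 to 18 bases before it, as TTGGGGAA. Such a match occurs in 36.8% of 32851 promoter windows of the same length. A GC box lay 170 to 165 bases before the Ptgs2 start, and 32.7% of windows hold one. None of the 9 motifs matched in the Ptgs1 window, which says only that these letters are not in it. GC content was 61.6% for Ptgs2 and 48.0% for Ptgs1, with a median of 52.4% over all windows.

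Of the 4 terminal synthases among the members, Ptgis had the largest log2 fold change at Day 7. On the log2(FPKM + 1) scale its Day 3 rise of 1.13 was close in size to the Ptges2 change of −1.07. That scale understates the change of Ptgis, which was low in control. The Ptgis mean was 17.3 times the control mean at Day 7 and 3.67 times at Day 3. For Ptges2 the Day 3 mean was 0.413 times the control mean. Ptgis, prostacyclin synthase (ENSMUSG00000017969.13, chr2:167191805-167240604, minus strand), measured 18.8, 25, 9.01 and 12.4 FPKM at Day 7. It measured 2.47, 5.04, 1.79 and 4.50 FPKM at Day 3 and 0.881, 0.715 and 1.23 FPKM in control. The 3 groups did not overlap, but the Day 7 libraries spread widely, with replicate 3 the lowest. Day 7 was higher than control by 3.07 on the log2 scale (95% interval 2.37 to 3.77, adjusted p = 3.62e-06) and than Day 3 by 1.94 (95% interval 1.28 to 2.59, adjusted p = 0.0015). Day 3 was higher than control by 1.13 (SE 0.32, adjusted p = 0.00814). Day 7 replicate 3 was also the lowest of its group for the collagen gene Col1a1, at 563 FPKM, where the other Day 7 libraries had 1390 to 1500 FPKM. The fibroblast and pericyte markers moved with Ptgis, with 10 of 12 higher between Day 7 and control, 9 of 12 between Day 3 and control and 9 of 12 between Day 7 and Day 3; their part in the Ptgis result was not tested.

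Ptges and Ptges2, the microsomal PGE2 synthases, did not follow Ptgs2. Ptges (mPGES-1, the synthase usually paired with COX-2; ENSMUSG00000050737.13, chr2:30889471-30929863, minus strand) measured 14.4, 21.7, 14.1 and 15.2 FPKM at Day 7. It measured 8.73, 12.0, 8.39 and 14.7 FPKM at Day 3 and 13.1, 25.8 and 14.6 FPKM in control. Control replicate 2 and Day 7 replicate 2 stood above the rest, and every pair of groups overlapped. At Day 7 the difference from control was −0.08 (95% interval −0.61 to 0.45, adjusted p = 0.782), an interval that covers both directions, and with TPM it turned to 0.39. At Day 3 Ptges was lower than control by a log2 fold change of −0.63 (95% interval −1.16 to −0.10, adjusted p = 0.038). That call rested on single libraries: it was −0.35 without control replicate 2 (adjusted p = 0.202), −0.54 without Day 3 replicate 1 (adjusted p = 0.0931) and −0.53 without Day 3 replicate 3 (adjusted p = 0.0968). It also ended with rescaling to TPM (−0.25, adjusted p = 0.384).

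Ptges2 (mPGES-2; ENSMUSG00000026820.5, chr2:32395896-32405772, plus strand) fell. It measured 2.65, 3.20, 3.01 and 2.81 FPKM at Day 7, 3.85, 4.13, 3.08 and 4.59 FPKM at Day 3 and 8.42, 12.4 and 7.62 FPKM in control. All UUO libraries lay below all control libraries. The log2 fold change against control was −1.39 at Day 7 (SE 0.16, adjusted p = 6.11e-06) and −1.07 at Day 3 (SE 0.16, adjusted p = 6.73e-05), and no scaling changed either call. Ptges exceeded Ptges2 by 5.58 ± 0.873 times at Day 7, 2.77 ± 0.388 times at Day 3 and 1.85 ± 0.271 times in control. As with the 15 proximal tubule markers, all of which were lower in both comparisons, the highest Ptges2 levels were in control. Of 11 distal nephron and collecting duct markers, 11 were lower at Day 7 and 10 at Day 3. Between the days 14 proximal and 2 distal markers were lower, while Ptges2 was not called (−0.32, adjusted p = 0.162). The part of either list in the Ptges2 result was not tested.

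Ptgds, the lipocalin-type PGD2 synthase (ENSMUSG00000015090.13, chr2:25466709-25470046, minus strand), measured 5.09, 4.05, 5.36 and 6.26 FPKM at Day 7. Day 3 libraries had 4.78, 7.33, 5.62 and 10.1 FPKM and control libraries 8.91, 8.19 and 8.28 FPKM. Day 7 lay wholly below control, and Day 3 spanned both groups. The log2 fold change was −0.62 at Day 7 (95% interval −1.05 to −0.19, adjusted p = 0.0132), and with TPM it was −0.23 and not called (adjusted p = 0.337). At Day 3 it was −0.29 (95% interval −0.72 to 0.13, adjusted p = 0.207), and without Day 3 replicate 4 it was −0.47 and called (adjusted p = 0.0239). It was also called at Day 3 with median centring (−0.63, adjusted p = 0.0139) and quantile normalization (−0.59, adjusted p = 0.0194), while with TPM its direction turned, to 0.09.

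The relation of prostacyclin synthase to the PGE2 synthase was read within each library. Ptgis stood at 0.978 ± 0.303 times Ptges at Day 7, 0.306 ± 0.0865 times at Day 3 and 0.0597 ± 0.0289 times in control. The ranges, 0.640 to 1.3 at Day 7, 0.213 to 0.421 at Day 3 and 0.0277 to 0.0840 in control, did not overlap. Ptgis was the lowest of the 9 genes in every control library, and at Day 7 it could not be ordered against Hpgd, Ptgs1, Ptges or Ptger4, whose libraries it overlapped.

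**Figure D3:**
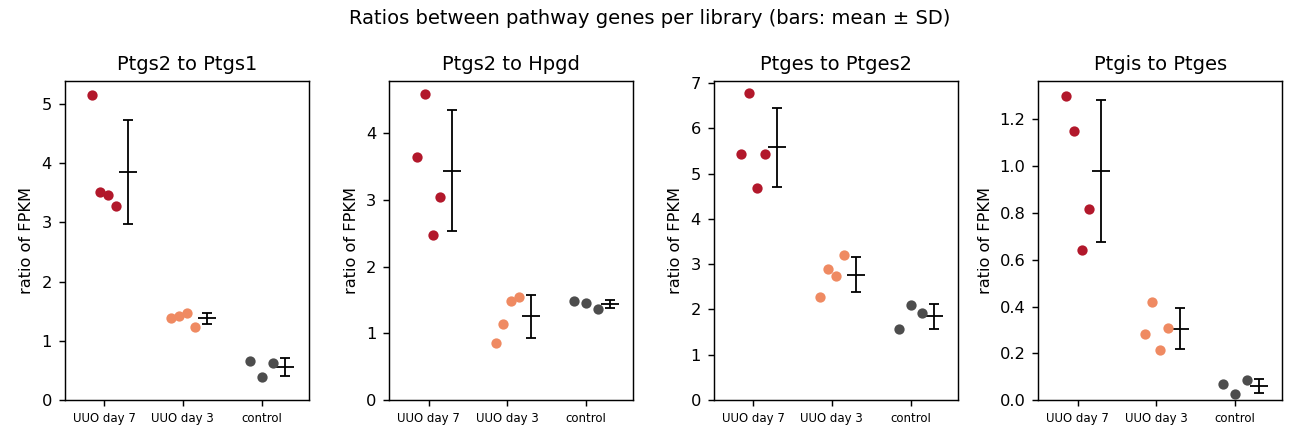
Ratios of FPKM between pairs of members within each library, with Day 7, Day 3 and control from left to right, points for libraries and bars for the mean ± SD. The ratios of Ptgs2 to Ptgs1 and of Ptgis to Ptges were highest at Day 7, intermediate at Day 3 and lowest in control, without overlap.

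Ptger4, the EP4 receptor for PGE2 (ENSMUSG00000039942.15, chr15:5206661-5244187, minus strand), was higher after UUO. It measured 14.4, 13.2, 19.2 and 13.6 FPKM at Day 7, 14.9, 13.7, 12.9 and 12.5 FPKM at Day 3 and 6.23, 7.73 and 6.86 FPKM in control. No control library reached a UUO library. The log2 fold change was 1.01 at Day 7 (SE 0.14, adjusted p = 2.84e-05) and 0.87 at Day 3 (SE 0.14, adjusted p = 0.000112), and with median centring 0.70 and 0.54, both still called. The days differed by 0.14 (adjusted p = 0.504). Both listed transcripts were called higher at both days, and the more abundant one held 73.1% ± 2.57 of the gene's FPKM at Day 7, 67.1% ± 6.48 at Day 3 and 73.1% ± 2.80 in control.

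Hpgd, which inactivates PGE2 (ENSMUSG00000031613.9, chr8:56294585-56321043, plus strand), rose as early as Day 3. It measured 23.7, 15.7, 25.6 and 20.5 FPKM at Day 7, 32.7, 25.7, 23.0 and 17.9 FPKM at Day 3 and 4.62, 4.46 and 5.43 FPKM in control. UUO and control libraries were well apart, while the 2 days overlapped. The log2 fold change was 1.92 at Day 7 (SE 0.20, adjusted p = 2.91e-06) and 2.12 at Day 3 (SE 0.20, adjusted p = 1.81e-06). Between the days it was −0.20 (95% interval −0.60 to 0.20, adjusted p = 0.498), an interval whose upper end lies below the Ptgs2 difference of 1.22. Ptgs2 stood at 3.44 ± 0.909 times Hpgd at Day 7, 1.26 ± 0.321 times at Day 3 and 1.44 ± 0.0638 times in control, and the Day 7 range of 2.48 to 4.6 lay above the others. The ratio of Ptges to Hpgd went the other way. It was 0.822 ± 0.384 at Day 7, 0.480 ± 0.242 at Day 3 and 3.78 ± 1.75 in control. All UUO libraries lay below the lowest control ratio of 2.69. The Hpgd promoter is shown to set the breakdown enzyme beside Ptgs2, which moved differently between the days. Its window, chr8:56294302-56294551 on the plus strand in RefSeq GRCm38.p6, runs 5′ to 3′ with motif matches in capitals.
Hpgd: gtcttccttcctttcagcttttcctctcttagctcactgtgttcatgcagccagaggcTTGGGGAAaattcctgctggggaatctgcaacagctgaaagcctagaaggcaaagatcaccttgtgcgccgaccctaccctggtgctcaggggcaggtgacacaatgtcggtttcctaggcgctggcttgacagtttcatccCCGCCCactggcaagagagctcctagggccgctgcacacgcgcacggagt
It held the C/EBP letters as TTGGGGAA at 192 to 185 bases before the start and a GC box at 50 to 45 bases before it, the same 2 kinds of match as Ptgs2 at other distances, and its GC content was 56.8%.

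Alox5ap (FLAP; ENSMUSG00000060063.9, chr5:149264767-149288153, plus strand) had the largest log2 fold change of the 9 genes at Day 3 and stood below Ptgs2 and Ptgis at Day 7. It measured 67.9, 74.4, 72.2 and 63.8 FPKM at Day 7, 98.4, 80.6, 81.1 and 76.2 FPKM at Day 3 and 6.82, 13.8 and 7.21 FPKM in control. Control replicate 2 stood above the other control libraries and far below every UUO library. The log2 fold change was 2.84 at Day 7 (SE 0.19, adjusted p = 1.09e-07) and 3.11 at Day 3 (SE 0.19, adjusted p = 1.05e-07). All Day 7 libraries lay below all Day 3 libraries, but the difference of −0.26 was not called (adjusted p = 0.35). Against control the macrophage markers moved in the same direction, all 14 being higher in both comparisons. Between the days 1 of them was called, higher at Day 7. The macrophage lysozyme gene Lyz2 had 1610 ± 47.9 FPKM at Day 7, 1330 ± 390 FPKM at Day 3 and 97.8 ± 22.9 FPKM in control. The part of these cells in the Alox5ap result was not tested.

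Some values may include reads of another gene, because exons overlap on the opposite strand and whether strand was used in counting is not given in the sources used here. Ptger4 shares 1015 exon bases with a pseudogene and 82 with Ttc33, Alox5ap shares 189, Ptgis 156 and Ptgs1 148 with antisense or predicted genes. The other members share none. The kit was stranded, but the deposited values do not show whether reads over these bases were separated by strand. At the level of transcripts, 14 of the members' 15 passed the filter, and 10 of 14 were called between Day 7 and control (9 higher, 1 lower), where 45.6% of all transcripts were called, 29.1% higher and 16.5% lower. The count was also 10 of 14 between Day 3 and control (9 higher, 1 lower), where 41.2% of all were called, 27.6% higher and 13.7% lower. Between Day 7 and Day 3 it was 2 of 14, both higher, where 4.26% were called, 2.25% higher and 2.01% lower. None of the 3 Ptgds transcripts was called, and their shares of the gene varied widely within groups, one of them from 0.200% to 52.8% among Day 3 libraries.

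**Figure D4:**
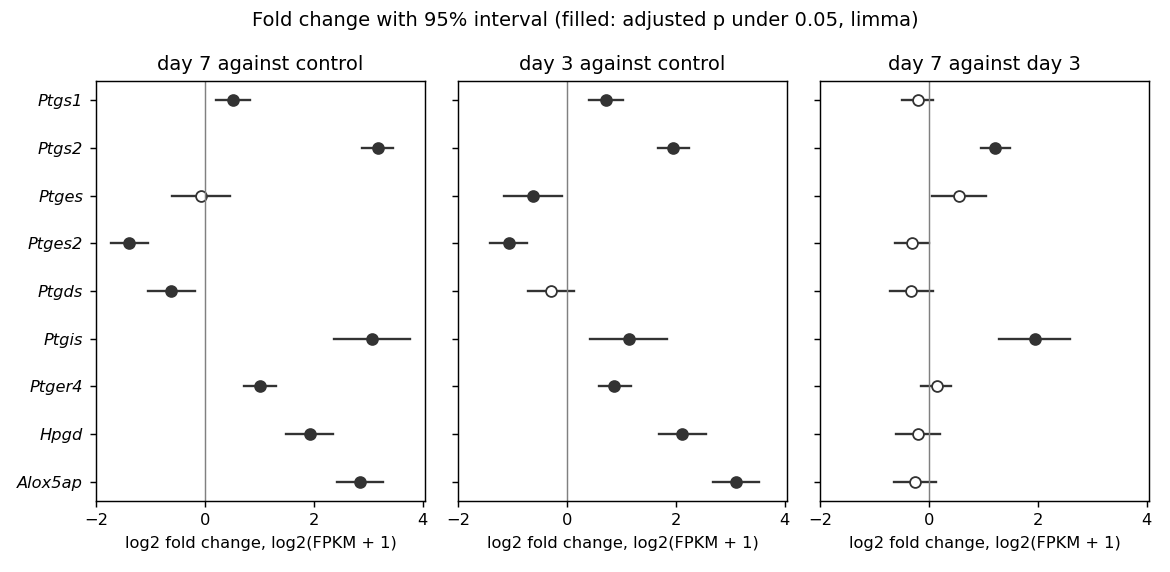
Log2 fold changes of the 9 genes on the log2(FPKM + 1) scale with 95% intervals, for Day 7 against control, Day 3 against control and Day 7 against Day 3, with filled points where the gene was called. In the panel of Day 7 against Day 3 only Ptgs2 and Ptgis are filled. The unadjusted interval of Ptges lies just above 0 there, and its adjusted p was 0.126.

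The order of the levels changed with UUO. At Day 7 Ptgs2 and Alox5ap were highest and overlapped, Hpgd, Ptgs1, Ptges, Ptgis and Ptger4 formed an overlapping middle, and Ptgds and then Ptges2 stood apart below. At Day 3 Alox5ap stood alone at the top, ahead of an overlapping run of Ptgs2, Hpgd and Ptgs1. In control libraries Ptges had the highest mean, in an overlapping run with Ptgs1, Ptges2, Alox5ap and Ptgds, and Hpgd and then Ptgis stood apart at the low end.

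For each member the 3 genes with the most similar profile were found among 11850 genes that averaged 1 FPKM or more, by the root mean square difference (RMS) of mean-centred log2(FPKM + 1) over the 11 libraries. For Ptgs2 these were Il1r1 (RMS 0.240), Egr2 (0.246) and Egr3 (0.248), where the profile of Ptgs2 itself has an RMS of 1.26 around its mean. Ptgis was closest to Twist1 (0.236), Thbs4 (0.239) and Lrrc17 (0.280), against its own 1.32. Alox5ap was closest to Rgs10 (0.163), Myo1f (0.174) and Pld4 (0.175), against its own 1.35. Hpgd was closest to Hmgb2 (0.136), Dcdc2a (0.157) and Ckap2l (0.176), against its own 0.936. For Ptges2 the nearest were Coa3 (0.0702), Mrpl14 (0.0760) and Coq4 (0.0761), against its own 0.595. Ptgs1, Ptger4, Ptges and Ptgds varied less, with own values of 0.328, 0.447, 0.424 and 0.348, and their nearest genes were Pcbp2 (0.0646), Stk19 (0.0748), Serpinb1a (0.207) and Slc6a20a (0.144).

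The members were set beside 53 other eicosanoid genes found in the table from lists of 66. Between Day 7 and control 20 of the 53 were higher and 24 lower, where 46.3% of all genes were higher and 23.5% lower, and the median log2 fold change was 0.00 where all genes had 0.28. Between Day 3 and control 20 were higher and 22 lower, where 44.4% of all genes were higher and 21% lower, and the median was 0.07 where all genes had 0.26. These shares are also the background of each list that follows. The split moved with the scaling: 15 of 41 called genes were higher at Day 7 with median centring and 27 of 45 with TPM, and at Day 3 the counts were 14 of 40 and 26 of 46.

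Among genes that release arachidonic acid, 3 of 10 were higher and 5 lower at Day 7 and 3 higher and 4 lower at Day 3, a balance that turned with TPM to 4 higher and 2 lower at Day 7 and 5 higher and 3 lower at Day 3. Pla2g4a, the cytosolic phospholipase A2, averaged 4.91 ± 0.794 FPKM at Day 7, 3.35 ± 0.791 FPKM at Day 3 and 1.82 ± 0.438 FPKM in control, and its log2 fold change at Day 7 was 1.07 (adjusted p = 0.00013). Daglb, a diacylglycerol lipase, rose by 1.32 at Day 7 and 1.29 at Day 3. Faah, which splits fatty acid amides, fell by 1.39 at Day 7 and 0.84 at Day 3. Mgll, monoacylglycerol lipase, fell by 1.60 at Day 7, a call that ended with TPM (adjusted p = 0.0697), and by 2.07 at Day 3. Pla2g15, a lysosomal phospholipase, was higher at Day 3 (1.37, adjusted p = 0.00607).

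Among 6 further prostanoid synthases 4 were higher and 1 lower at Day 7, and 3 were higher and none lower at Day 3. Hpgds, the hematopoietic PGD2 synthase, averaged 6.93 ± 3.17 FPKM at Day 7, 5.35 ± 2.5 FPKM at Day 3 and 1.02 ± 0.0831 FPKM in control, with log2 fold changes of 1.89 (adjusted p = 0.000125) and 1.57 (adjusted p = 0.000603). It rose where the other PGD2 synthase, Ptgds, fell at Day 7. Tbxas1, thromboxane synthase, averaged 6.69 ± 0.953 FPKM at Day 7, 5.97 ± 1.11 FPKM at Day 3 and 1.76 ± 0.106 FPKM in control (log2 fold changes 1.47 and 1.33). Cbr1, a carbonyl reductase, was lower at Day 7 (−0.53, adjusted p = 0.0212), a call that ended with TPM (adjusted p = 0.743). Of 6 genes of further breakdown and transport, 1 was higher and 2 lower at Day 7, and 2 were higher and 3 lower at Day 3. This balance also turned with the scaling: at Day 7 it was 4 higher and 1 lower with TPM and 0 higher and 3 lower with quantile normalization, and at Day 3 it was 3 higher and 2 lower with TPM. Ptgr2, a prostaglandin reductase that acts after Hpgd, fell to 7.04 ± 0.564 FPKM at Day 7 and 8.41 ± 1.16 FPKM at Day 3, against 17.7 ± 3.54 FPKM in control. Abcc4, which can export prostaglandins, was higher at Day 3 (0.67, adjusted p = 0.000543). Ptgr1, another prostaglandin reductase, was higher at Day 7 (0.60) and Day 3 (0.49), but neither was called with median centring (adjusted p = 0.11 and 0.398) or quantile normalization (adjusted p = 0.0513 and 0.289). Zadh2, also named prostaglandin reductase 3, was lower at Day 7 by a log2 fold change of −0.64, which was not called with TPM (adjusted p = 0.21). At Day 3 Zadh2 was lower by −0.88 (adjusted p = 0.000111). Akr1c18 was lower at Day 3 by −0.90, a call that ended with TPM (adjusted p = 0.0544).

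The other prostanoid receptors moved both ways, with 2 of 6 higher and 3 lower at each day, and 3 higher and 3 lower at Day 7 with TPM. Ptgir, the prostacyclin receptor, averaged 3.83 ± 0.493 FPKM at Day 7, 2.88 ± 0.439 FPKM at Day 3 and 0.884 ± 0.128 FPKM in control, with log2 fold changes of 1.36 (adjusted p = 8.35e-07) and 1.04 (adjusted p = 1.02e-05). Among the PGE2 receptors, Ptger3 (EP3) fell by 1.69 at Day 7 and 1.54 at Day 3, and Ptger1 (EP1) by 1.54 and 1.43. Ptger2 (EP2), outside the naming rule for its low level, was higher at Day 7 (0.64, adjusted p = 0.00102) and Day 3 (0.57, adjusted p = 0.00268). It averaged 0.744 ± 0.352 FPKM at Day 7, 0.637 ± 0.134 FPKM at Day 3 and 0.101 ± 0.0384 FPKM in control. With median centring or quantile normalization, 1 of the 6 receptors was called higher at each day. Ptger3 averaged 3.29 ± 0.541 FPKM at Day 7, 3.85 ± 1.09 FPKM at Day 3 and 13.3 ± 4.45 FPKM in control. Ptger4 was thus above Ptger3 in mean level at both days, and below it in control.

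Next to Alox5ap, the lipoxygenase and leukotriene synthesis genes had 7 of 12 higher and 4 lower at each day, where 46.3% of all genes were higher at Day 7 and 44.4% at Day 3. With median centring or quantile normalization 6 were higher and 4 lower at Day 7, and 4 higher and 4 lower at Day 3. The macrophage markers, higher at both days, and the proximal tubule markers, lower at both days, moved alongside, and their part was not tested. Ltc4s, leukotriene C4 synthase, averaged 12.8 ± 4.62 FPKM at Day 7, 11.3 ± 3.13 FPKM at Day 3 and 3.92 ± 0.967 FPKM in control (log2 fold changes 1.46 and 1.31). Dpep2, a dipeptidase that trims leukotriene D4, averaged 6.51 ± 0.784 FPKM at Day 7, 6.19 ± 0.819 FPKM at Day 3 and 0.269 ± 0.0781 FPKM in control. Ggt1, a gamma-glutamyltransferase of the tubular brush border, fell to 12.5 ± 1.64 FPKM at Day 7 and 32.0 ± 10.4 FPKM at Day 3, against 183 ± 9.69 FPKM in control. Mgst3, a microsomal glutathione transferase, was lower at Day 7 (−2.14) and Day 3 (−1.66), and so was Dpep1, a renal dipeptidase (−1.77 and −1.80). Of 4 leukotriene and lipoxin receptors 3 were higher and 1 lower at each day. Cysltr1, a cysteinyl leukotriene receptor, rose by 2.26 at Day 7 and 1.60 at Day 3, and Ltb4r1, a leukotriene B4 receptor, by 1.98 and 1.44. Oxgr1, an oxoglutarate receptor that also responds to leukotriene E4, fell by 1.57 and 1.41.

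The cytochrome P450 and epoxide hydrolase genes, which form and clear other arachidonate products, were lower in 8 of 9 cases at Day 7 and 7 of 9 at Day 3, with none higher, where 23.5% of all genes were lower at Day 7 and 21% at Day 3. Their median log2 fold change was −2.18 at Day 7 and −1.06 at Day 3, and 7 of 9 were also lower at Day 7 than at Day 3, where 8.37% of all genes were. Ephx2, soluble epoxide hydrolase, averaged 12.9 ± 3.4 FPKM at Day 7, 22.3 ± 5.20 FPKM at Day 3 and 129 ± 18.1 FPKM in control. Cyp4a12a, a fatty acid hydroxylase, averaged 0.744 ± 0.140 FPKM at Day 7, 4.25 ± 1.67 FPKM at Day 3 and 30.8 ± 3.93 FPKM in control. The proximal tubule marker sum moved with these genes, and its part was not tested.

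**Figure D5:**
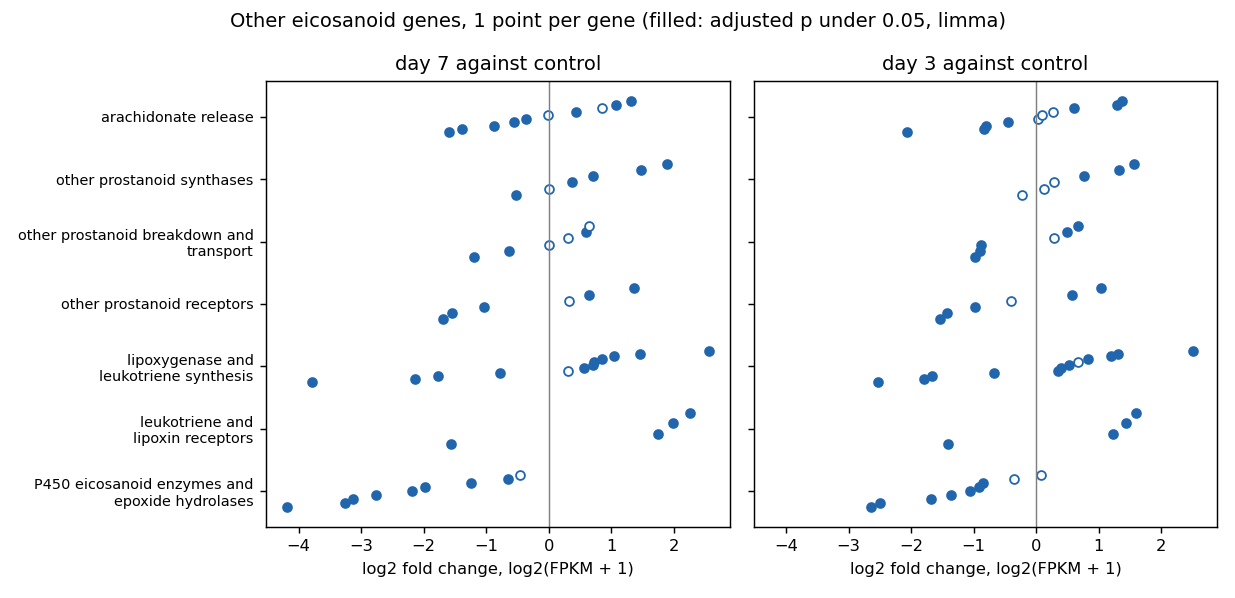
Log2 fold changes of the listed eicosanoid genes by list, for Day 7 against control and Day 3 against control, with 1 point per gene, filled where the gene was called. All called genes of the P450 and epoxide hydrolase list lie below 0, and 3 of 4 leukotriene and lipoxin receptors lie above it.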

How the data were processed

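RNA was sequenced from kidney cell preparations of 11 samples (Day 7 n = 4, Day 3 n = 4, control n = 3), grouped by title. Trizol-extracted total RNA went into a stranded kit, per the labels' protocols. The authors deposited FPKM values per gene and per transcript, per the file headers. Tools named in the submitters' processing notes are StringTie, HISAT2 and cutadapt, with GRCm38 as the build. Their versions and roles and the annotation release are not stated in the sources used here. All 9 members matched GENCODE M21 by identifier, version and coordinates.

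The 13428 genes that averaged 0.5 FPKM or more over all libraries were tested on log2(FPKM + 1) with limma 3.58.1 in R 4.3.3, in one fit of the 3 groups with a mean-variance trend. The other 557 fell below that minimum. Transcripts (23910) were fitted separately. The gene fit was also tried on simulated data in which few genes changed, and only at Day 3. That trial does not cover comparisons in which most genes are called, such as those with control here. Tables used pandas 2.3.3 and numpy 2.4.6 in Python 3.11.15, and plots matplotlib 3.10.9. No 2 libraries were identical. The depth is unknown, so no counting interval is given.

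The members, lists, motifs and tests were chosen with earlier results of these data known. Beside the members, up to 2 genes per list and direction were named in each comparison with control, those with the largest change among called genes that reached 1 FPKM in a group and did not overlap, together with the 3 nearest profiles per member and the 2 most abundant markers per list where a result turned on them. Alternatives were other pseudocounts, filters, scalings (median, quantile, TPM, nuclear genes), fits, and leaving out each library. Replicate numbers from the titles correlated between Day 7 and control libraries at 0.17, 0.43 and 0.17 (deviations from group means), which pairs them by the rule used, although the labels name no shared origin. For Day 7 against control, the fit with that block called 8 members, and no member's call changed in that comparison.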

Additional observations from a re-analysis of the deposited data

Results flagged for a closer look

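Ptges in Day 7 replicate 2 was at 21.7 FPKM, where the other Day 7 libraries had 14.1 to 15.2 FPKM. Its gap to the nearest library was 0.852 of the group's range, above Dixon's 95% critical value for 4 libraries. Chance flags about 1 in 20 groups, and 18 were checked.

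The effects against control differed between the days for Ptgs2, by 1.22 on the log2 scale (adjusted p = 0.000165), and for Ptgis, by 1.94 (adjusted p = 0.0015). In both, Day 7 was higher, and the test was limma's comparison of Day 7 with Day 3.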

How the results depend on the processing

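Of the results recomputed under each alternative, 588 kept their direction and side of the threshold, 5 newly passed it, 7 no longer did and 3 changed sign. Ptges at Day 7 against control was 0.39 with TPM and between −0.26 and 0.20 when single libraries were left out, the positive value being without control replicate 2, and Ptgds at Day 3 against control was 0.09 with TPM, none of them called in the reported fit; the cause was not tested. The count of genes called between Day 7 and Day 3 was 2114 and ranged from 1366 to 2599 when single libraries were left out. Members called ranged from 7 to 8 at Day 7 against control, 7 to 9 at Day 3 against control and 2 to 3 between the days. Ptges at Day 3 against control was −0.63 with an adjusted p of 0.0507 in a fit of those groups alone. Ptgds at Day 3 was called with median centring (−0.63) and quantile normalization (−0.59). Replicate numbers did not pair the other comparisons (correlations −0.14 to 0.23 for Day 3 with control and −0.03 to 0.34 for Day 7 with Day 3). With the replicate block Ptgds was called at Day 3 (−0.42, adjusted p = 0.042) and Ptges between the days (0.55, adjusted p = 0.0249), giving 9 members and 3 members, and the blocked fit called 9512 genes for Day 7 against control, 8880 for Day 3 against control and 2336 for Day 7 against Day 3. A block fit of Day 7 and control alone, added after seeing the data, called 9378 genes. FPKM hold no depth, so precision rests on the spread between libraries.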

Other observations

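Some listed genes outside the naming rule were looked up after their values were seen. Ptges3, a cochaperone also described as cytosolic PGE2 synthase, had the highest level of the PGE2 synthases, at 73.1 ± 5.31 FPKM at Day 7, 76.7 ± 10.6 FPKM at Day 3 and 45.0 ± 8.69 FPKM in control (log2 fold changes 0.70 and 0.76, called under every scaling tried). Alox5, the 5-lipoxygenase that Alox5ap serves, averaged 1.07 ± 0.470 FPKM at Day 7, 1.03 ± 0.368 FPKM at Day 3 and 0.130 ± 0.0643 FPKM in control, far below Alox5ap in each group (log2 fold changes 0.85 and 0.83, adjusted p = 0.000845 and 0.00115). Ptgfr, the receptor for PGF2alpha, averaged 2.26 ± 0.828 FPKM at Day 7, 2.39 ± 0.917 FPKM at Day 3 and 5.67 ± 1.65 FPKM in control, and was called lower at both days.

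Akr1c18, an aldo-keto reductase, was the only breakdown or transport gene on the list called between the days, at 6.01 ± 3.38 FPKM at Day 7 and 1.22 ± 0.400 FPKM at Day 3, with 3.10 ± 0.255 FPKM in control (Day 7 against Day 3, 1.55, adjusted p = 0.00326). Tbxa2r, the thromboxane receptor, was the only other prostanoid receptor on the list called between the days, at 3.26 ± 1.02 FPKM at Day 7 and 1.5 ± 0.225 FPKM at Day 3, with 2.34 ± 0.363 FPKM in control (0.73, adjusted p = 0.0116).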
